A study of Homo sapiens with 12 samples.

Results

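The 9 genes described here encode proteins of the tight junction, and they were taken by gene symbol from the 58735 genes measured in NCM460 cells, a human cell line labelled as normal colonic epithelium. They are the claudins CLDN1, CLDN4, CLDN7 and CLDN12, the membrane proteins OCLN and F11R, and the cytoplasmic proteins TJP1, TJP3 and CGN. All 9 passed the filter on low values, so each was tested among 18079 genes. The 12 poly(A) RNA libraries fall into 4 groups of 3: cells in medium; cells given the cytokine TNF-α; cells given TNF-α and Bufotenidine, a quaternary tryptamine here called 5-OH-TMT; and cells given TNF-α in which the mitochondrial serine protease HTRA2 had been knocked down with siRNA. The last 3 groups therefore share TNF-α, and its dose and duration are not given in the sources used here. The study's text sets the knockdown against a control siRNA and lists several siRNAs, but the labels do not say whether the other groups received one or which siRNA each knockdown library received, so from the labels transfection and knockdown cannot be told apart. Nothing states that the 3 libraries of a group came from separate cultures, and the p-values measure only the spread between these libraries.

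Tight junctions seal the space between neighbouring epithelial cells near their apical side. Claudins form the strands and set which ions and solutes pass, occludin (OCLN) and the junctional adhesion molecule F11R (JAM-A) lie in the same membrane contacts, and the scaffolds ZO-1 (TJP1), ZO-3 (TJP3) and cingulin (CGN) tie them to actin and myosin. In the colon this seal keeps luminal bacteria from the tissue below, and TNF-α is a cytokine known for loosening it.

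Between 31008429 and 37624399 reads per library fell on genes, and even the member with the fewest, OCLN, had at least 696 reads in each library. HTRA2 itself measured 15.4, 14.0 and 14.2 FPKM (fragments per kilobase, scaled to library depth) with TNF-α and 7.44, 7.18 and 7.22 FPKM in the knockdown, a ratio of 0.502 (adjusted p = 2.8e-05). All 8 epithelial markers were at 1 FPKM or more, whereas 13 of 14 colonocyte markers were under 0.1 FPKM, among them CDX1, CDX2, VIL1 and KRT20, so the labelled colonic identity was not borne out by these genes. All 8 squamous or basal markers were at 1 FPKM or more. In bulk RNA of this kind, fewer cells of a type and less RNA per cell cannot be told apart.

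CLDN1, a barrier-forming claudin, had the largest change of the 9 with TNF-α, and it was higher again when HTRA2 was knocked down. Its gene lies on the minus strand at chr3:190305701-190322475 (GRCh38). CLDN1 measured 24.4, 24.1 and 27.5 FPKM in medium, 69.8, 72.1 and 71.3 FPKM with TNF-α, 64.4, 60.2 and 74.2 FPKM with TNF-α+5-OH-TMT, and 112, 113 and 107 FPKM in the knockdown. The medium libraries lay below all others and the knockdown libraries above all others, while those with TNF-α and with TNF-α+5-OH-TMT overlapped. With TNF-α it rose 2.80-fold, by 1.49 ± 0.08 (SE) on the log2 scale (limma, adjusted p = 4.5e-07). The knockdown was 1.56-fold higher than TNF-α, by 0.64 ± 0.08 on the log2 scale (adjusted p = 0.000232). 5-OH-TMT gave a log2 difference from TNF-α of −0.11 with a 95% interval from −0.28 to 0.07 (adjusted p = 0.465).

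The sequence before the CLDN1 start site is shown because CLDN1 was the one member with a called rise on TNF-α. TNF-α acts in part through the transcription factor NF-κB, which reads the κB consensus. Whether NF-κB had a part in this rise was not tested. These are the 250 bases upstream of the RefSeq start (GRCh38.p14, minus strand, chr3:190322447-190322696), with the match to the κB consensus in capitals, 70 to 61 bases before the start.
CLDN1: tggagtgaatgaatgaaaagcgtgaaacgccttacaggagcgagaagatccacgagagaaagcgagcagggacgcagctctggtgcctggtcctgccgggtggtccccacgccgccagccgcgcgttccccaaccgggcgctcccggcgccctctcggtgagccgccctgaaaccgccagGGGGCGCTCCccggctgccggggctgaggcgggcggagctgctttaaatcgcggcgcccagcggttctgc

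RefSeq promoter windows, from 250 bases before to 50 after a start, were found for 8 of the 9 members, 14 windows in all, with F11R unmatched. On either strand, the κB consensus occurred in 1 of the 14 windows, that of CLDN1, beside 11.3% of 35116 windows of all genes. The letters CAGGTG, an E-box read by repressors such as SNAI1, did not occur in the CLDN1 window. They occurred in all windows of OCLN and in some but not all of those of TJP1, CLDN7 and TJP3. Of all windows 20.6% had a match, which is a share of windows and not of genes. Both motifs were chosen after the expression values had been seen, and a match is a run of letters, not a measured binding site.

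The other 3 claudins differed less between groups. CLDN4, which limits paracellular sodium passage, lies at chr7:73799542-73832693. It measured 42.6, 54.7 and 41.5 FPKM in medium, 38.7, 38.0 and 41.5 FPKM with TNF-α, 49.6, 44.6 and 46.0 FPKM with TNF-α+5-OH-TMT, and 44.2, 42.4 and 44.8 FPKM in the knockdown. The TNF-α libraries were the low group and lay below those of 5-OH-TMT and of the knockdown, and the second medium library was the highest of the 12. No comparison of CLDN4 passed the threshold: the log2 difference was −0.22 for TNF-α against medium (adjusted p = 0.291), 0.25 for 5-OH-TMT against TNF-α (adjusted p = 0.183) and 0.15 for the knockdown against TNF-α (adjusted p = 0.303).

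CLDN7, a claudin of the intestinal epithelium also found on the lateral membrane, lies at chr17:7259903-7263983. It measured 32.0, 35.1 and 30.5 FPKM in medium, 35.0, 34.5 and 34.9 FPKM with TNF-α, 38.7, 39.6 and 38.3 FPKM with TNF-α+5-OH-TMT, and 43.2, 39.0 and 45.6 FPKM in the knockdown. Both groups that received 5-OH-TMT or siRNA lay above every TNF-α library. The knockdown was 1.23-fold higher than TNF-α (log2 difference 0.29 ± 0.07, adjusted p = 0.0135), a call that was lost without knockdown replicate 1 (adjusted p = 0.052) or 3 (adjusted p = 0.0505). 5-OH-TMT gave 0.16 on the log2 scale (adjusted p = 0.228), and TNF-α against medium 0.10 (adjusted p = 0.581).

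CLDN12, a claudin linked to calcium passage, lies at chr7:90383721-90513402. It measured 5.18, 4.41 and 5.46 FPKM in medium, 6.13, 5.65 and 6.66 FPKM with TNF-α, 4.90, 4.92 and 5.52 FPKM with TNF-α+5-OH-TMT, and 5.90, 6.52 and 5.74 FPKM in the knockdown. The TNF-α libraries lay above those of medium and of 5-OH-TMT without overlap, but neither difference passed (log2 0.29, adjusted p = 0.158, and −0.26, adjusted p = 0.183). The knockdown against TNF-α gave −0.02 (adjusted p = 0.922), which was 0.02 after rescaling to a fixed FPKM sum.

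**Figure D1:**
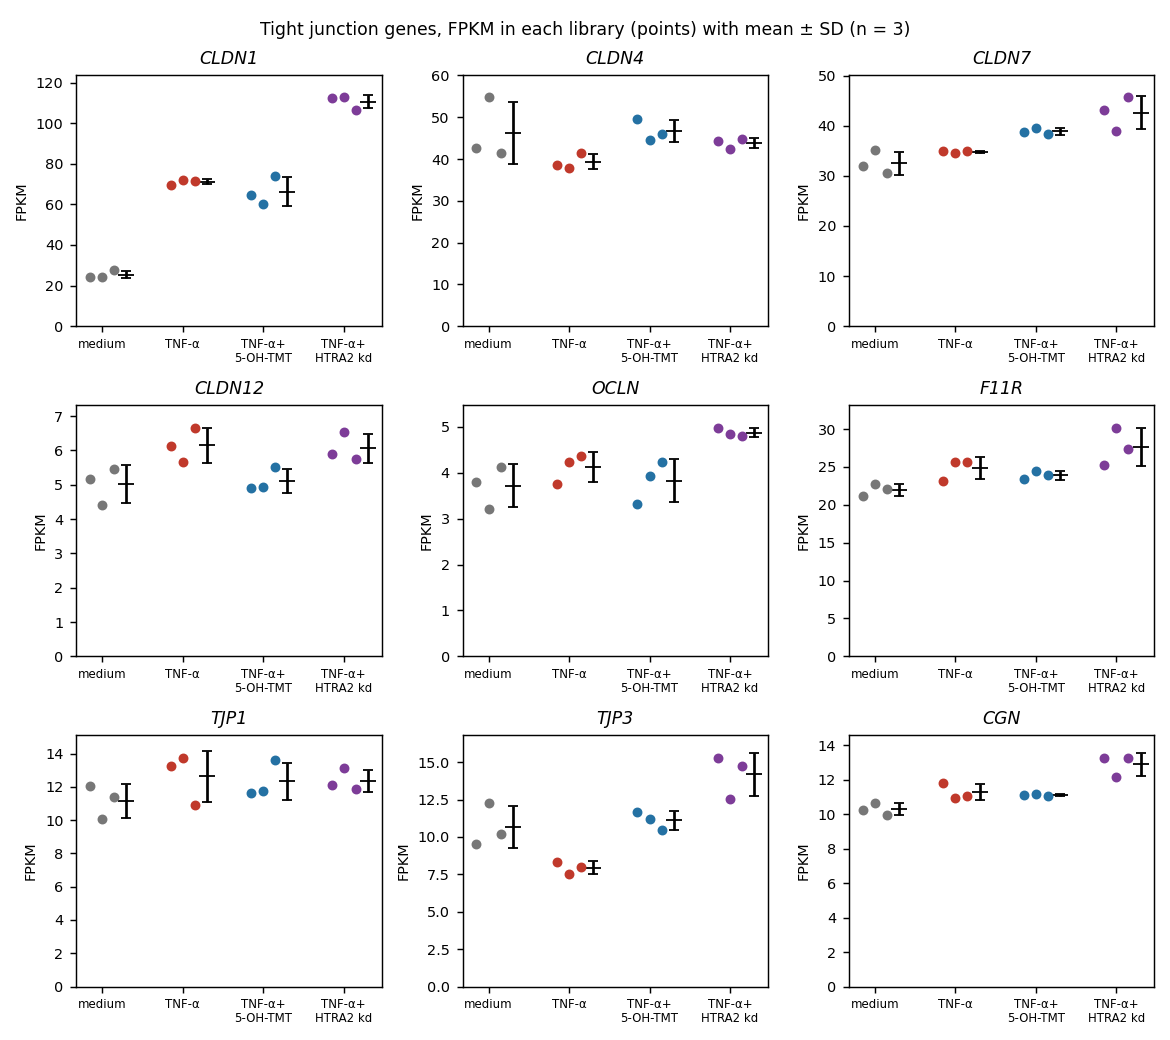
FPKM (vertical axis, from 0) of the 9 tight junction genes in each of the 12 libraries, 3 points per group in the order of replicates, with the mean ± SD beside them (kd, knockdown). CLDN1 steps up from about 25.4 FPKM in medium to 71.1 FPKM with TNF-α and 111 FPKM in the knockdown, and TJP3 is lowest with TNF-α.

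The makeup of the claudin transcripts differed between the groups, with CLDN1 taking a larger share in each group given TNF-α. The 24 claudins summed to 117 ± 9.20 FPKM (SD, n = 3) in medium, 157.7 ± 2.74 with TNF-α, 164.9 ± 6.71 with TNF-α+5-OH-TMT and 209.7 ± 3.05 in the knockdown. Without CLDN1 the sums were 91.7 ± 10.2, 86.7 ± 2.55, 98.7 ± 1.73 and 99.1 ± 4.98 FPKM. CLDN1 made up 21.8% ± 2.74 of the claudin FPKM in medium, 45.1% ± 0.865 with TNF-α, 40.1% ± 2.76 with TNF-α+5-OH-TMT and 52.8% ± 1.93 in the knockdown, and CLDN4 went from 39.4% ± 3.17 to 25.0% ± 0.80, 28.4% ± 1.65 and 20.9% ± 0.385. These shares are a description, with no test. CLDN2, the pore-forming claudin that is known to rise in inflamed colon, averaged 0.0357 FPKM in medium and 0.0339 FPKM with TNF-α, and CLDN8 was at or near 0 in each group. CLDN9, the highest claudin outside the members, averaged 4.41 FPKM in medium, 2.93 with TNF-α, 4.13 with TNF-α+5-OH-TMT and 2.38 in the knockdown. Against medium, a comparison added after the values were seen, CLDN9 was lower in the knockdown (limma log2 difference −0.89, adjusted p = 0.00622). CLDN16, at a low level, was higher there (1.09, adjusted p = 0.0214). Of the 24 claudins, 11 passed the filter, and CLDN1 was the 1 called with TNF-α. In that comparison 3.22% of all genes were called higher and 0.885% lower.

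**Figure D2:**
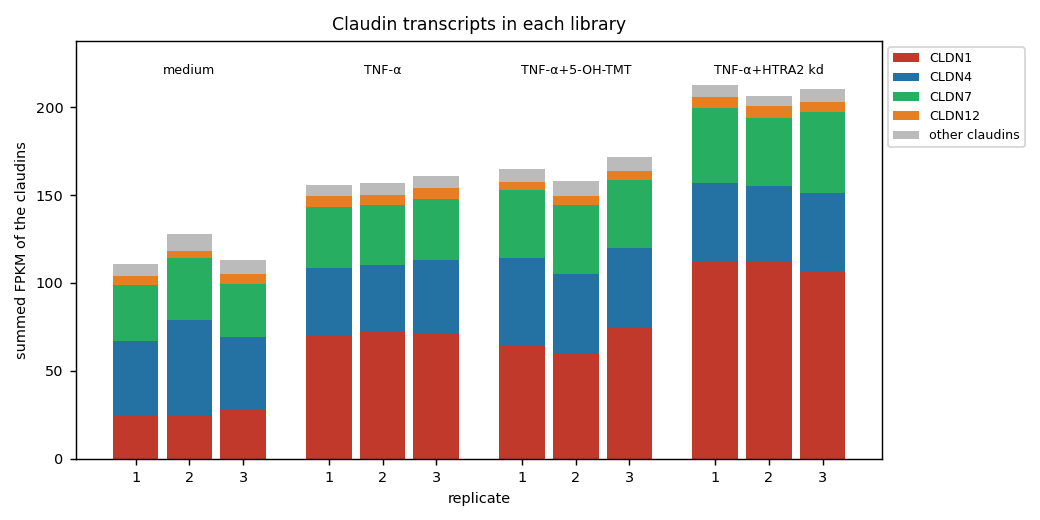
Summed FPKM of the claudins (vertical axis) in each library (horizontal axis, replicates 1 to 3 of the 4 groups), split by colour into CLDN1, CLDN4, CLDN7, CLDN12 and the other claudins (kd, knockdown). The bars grow from 110.8 to 127.6 FPKM in medium to 206.4 to 212.4 FPKM in the knockdown, mainly through the CLDN1 part.

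OCLN, at chr5:69492292-69558104, was the member with the lowest level in every group. It measured 3.81, 3.21 and 4.13 FPKM in medium, 3.75, 4.24 and 4.38 FPKM with TNF-α, 3.31, 3.94 and 4.23 FPKM with TNF-α+5-OH-TMT, and 4.99, 4.84 and 4.80 FPKM in the knockdown. The knockdown libraries lay above all 9 others, whereas medium, TNF-α and 5-OH-TMT overlapped. The knockdown against TNF-α gave 0.24 on the log2 scale, with a 95% interval from −0.01 to 0.49, and did not pass (adjusted p = 0.174). TNF-α gave 0.15 (adjusted p = 0.619) and 5-OH-TMT −0.11 (adjusted p = 0.621).

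F11R, at chr1:160995211-161021348, binds its own kind across the cell contact. It measured 21.1, 22.7 and 22.1 FPKM in medium, 23.1, 25.7 and 25.7 FPKM with TNF-α, 23.3, 24.4 and 23.9 FPKM with TNF-α+5-OH-TMT, and 25.2, 30.2 and 27.4 FPKM in the knockdown. All 9 libraries with TNF-α lay above the 3 in medium. The difference of TNF-α from medium was 0.17 on the log2 scale and did not pass (adjusted p = 0.28), nor did the knockdown (0.15, adjusted p = 0.193) or 5-OH-TMT (−0.05, adjusted p = 0.711) against TNF-α.

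Among the scaffolds TJP3 was called with TNF-α and in the knockdown, and TJP1 in no comparison run here. TJP1 (ZO-1), at chr15:29699367-29968865, measured 12.05, 10.05 and 11.4 FPKM in medium, 13.2, 13.7 and 10.9 FPKM with TNF-α, 11.7, 11.7 and 13.6 FPKM with TNF-α+5-OH-TMT, and 12.1, 13.1 and 11.9 FPKM in the knockdown. All 4 groups overlapped. The knockdown differed from TNF-α by −0.02 on the log2 scale with a 95% interval from −0.25 to 0.20, and 5-OH-TMT by −0.03 with an interval from −0.26 to 0.19, and the first of these was 0.02 after rescaling to a fixed FPKM sum. TNF-α against medium gave 0.17 (adjusted p = 0.504).

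TJP3 (ZO-3), at chr19:3708109-3750813, measured 9.55, 12.3 and 10.2 FPKM in medium, 8.36, 7.52 and 7.99 FPKM with TNF-α, 11.7, 11.2 and 10.4 FPKM with TNF-α+5-OH-TMT, and 15.3, 12.5 and 14.7 FPKM in the knockdown. The TNF-α libraries lay below all 9 others and the knockdown libraries above them. With TNF-α TJP3 fell to 0.746 of its medium level (log2 difference −0.41 ± 0.10, adjusted p = 0.0461), and that call was lost when any of 5 of the 6 libraries was left out, all but medium replicate 1 (adjusted p 0.0788 to 0.16). The knockdown was 1.78-fold higher than TNF-α (0.82 ± 0.10 on the log2 scale, adjusted p = 0.000244), and this call held in all 6. 5-OH-TMT gave a 1.40-fold higher mean than TNF-α with a log2 difference of 0.48 and a 95% interval from 0.25 to 0.70. This did not pass (adjusted p = 0.0857), nor did it in any of the 6 fits with a library left out (adjusted p 0.14 to 0.309). It passed in 3 of 11 alternatives: a filter at a mean of 1 FPKM (adjusted p = 0.0491), a fit to the 2 groups alone (0.0414) and voom on recovered reads (0.0417).

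CGN, at chr1:151510510-151538692, measured 10.2, 10.7 and 9.95 FPKM in medium, 11.8, 10.96 and 11.1 FPKM with TNF-α, 11.1, 11.2 and 11.1 FPKM with TNF-α+5-OH-TMT, and 13.3, 12.1 and 13.2 FPKM in the knockdown. Each knockdown library was above each of the other 9. The difference from TNF-α was 0.19 on the log2 scale and did not pass (adjusted p = 0.0564). It passed in 1 of 6 fits with a library left out, the one without knockdown replicate 2 (adjusted p = 0.0237, up to 0.164 in the others). It passed in 3 of 11 alternatives: without a filter on low values (adjusted p = 0.0489), after quantile normalization (0.0367) and when rescaled to a fixed FPKM sum (0.0166). In the others the adjusted p reached up to 0.119. TNF-α against medium gave 0.13 (adjusted p = 0.358) and 5-OH-TMT against TNF-α −0.02 (adjusted p = 0.893).

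**Figure D3:**
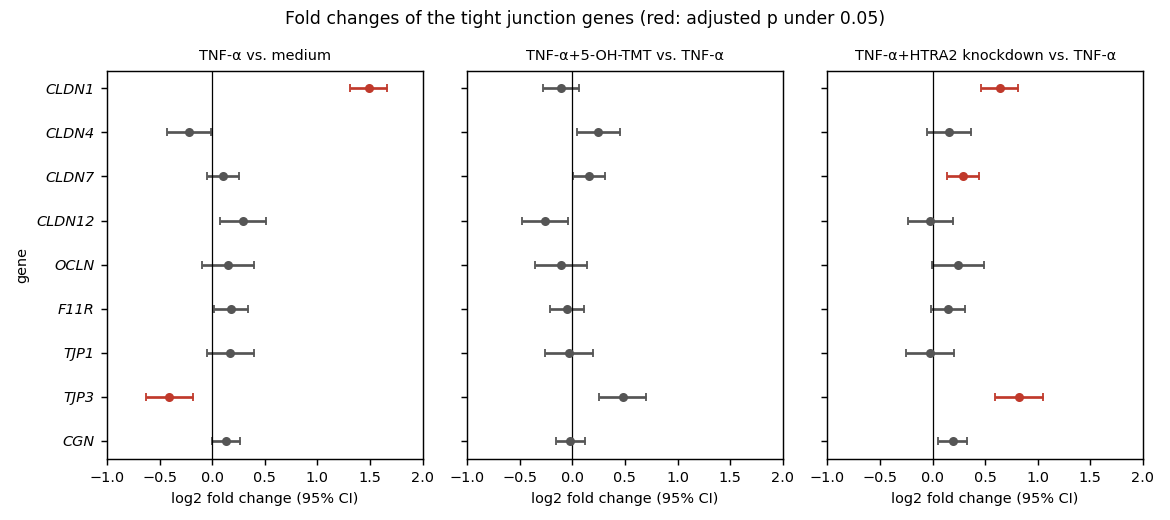
Log2 fold change (horizontal axis) with its 95% interval for the 9 genes in 3 comparisons, from the limma fit, with adjusted p under 0.05 in red. CLDN1 at 1.49 and TJP3 at −0.41 are red with TNF-α, none is red with 5-OH-TMT, and CLDN1, CLDN7 and TJP3 are red in the knockdown.

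By count, TNF-α raised 1 of the 9 and lowered 1, where 3.22% of all genes tested were called higher and 0.885% lower. With 5-OH-TMT against TNF-α 0 of 9 were called by limma, where 0.0332% of all genes were called higher and 0.00553% lower, which is 7 genes in all. At an unadjusted p under 0.05 there were 4 of 9 (CLDN4, CLDN7 and TJP3 higher, CLDN12 lower), where 3632 of all genes (20.1%) were. Voom called 1 of 9, but the share of all genes that voom called was not computed. The knockdown raised 3 of 9 and lowered 0, where 9.35% of all genes were called higher and 8.08% lower, and by the fold criterion of the study (2-fold or more, p up to 0.05 without adjustment) it changed 0 of 9, where 4.23% of all genes met it. That criterion was met by CLDN1 alone among the members with TNF-α, where 2.73% of genes met it, and by none with 5-OH-TMT, where 1.50% did. The median log2 difference of the 9 was 0.15 with TNF-α, 0.19 in the knockdown and −0.03 with 5-OH-TMT, beside a median over all genes within 0.01 of 0. The comparisons with 5-OH-TMT and with the knockdown share the TNF-α libraries. In an exact two-sided permutation test of 3 libraries against 3, each called difference reached 0.1, the smallest p that this design allows.

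Against medium, in comparisons added after the values were seen, the treated groups were set beside untreated cells. With TNF-α+5-OH-TMT, CLDN1 remained 2.61-fold above medium (log2 difference 1.38 ± 0.08, adjusted p = 5.93e-07) and CLDN7 was 1.20-fold above it (adjusted p = 0.0456, passing in 1 of 6 fits with a library left out), so 2 of 9 were higher and 0 lower, where 4.99% of all genes were called higher and 1.56% lower. TJP3 was 1.04 times its medium level there (log2 difference 0.07, 95% interval −0.16 to 0.29). In the knockdown 6 of 9 were higher than in medium and 0 lower, where 12.9% of all genes were higher and 11.4% lower. These were CLDN1 (4.36-fold, adjusted p = 7.81e-09), TJP3 (1.33-fold, adjusted p = 0.0124), CLDN7 (1.31-fold, adjusted p = 0.00162), OCLN (1.31-fold, adjusted p = 0.0262), F11R (1.26-fold, adjusted p = 0.00736) and CGN (1.25-fold, adjusted p = 0.00275). The OCLN call passed in 1 of the 6 fits with a library left out, the one without medium replicate 3 (adjusted p = 0.0185), and the TJP3 call in 4.

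The knockdown was also set against 5-OH-TMT directly, both with TNF-α, likewise after the values were seen. CLDN1 was 1.67-fold higher in the knockdown (log2 difference 0.74 ± 0.08, adjusted p = 0.000163), TJP3 1.28-fold (adjusted p = 0.0425) and CGN 1.16-fold (adjusted p = 0.0423). That is 3 of 9 higher and 0 lower, where 7.85% of all genes were higher and 7.43% lower. The TJP3 and CGN calls each passed in 1 of 6 fits with a library left out, whereas that of CLDN1 passed in all 6.

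Compared per kilobase, the order of the members changed at its top. In medium CLDN4 led with 46.3 ± 7.37 FPKM (SD, n = 3), followed by CLDN7 with 32.5 ± 2.33, CLDN1 with 25.4 ± 1.86 and F11R with 22.0 ± 0.820, each apart from the next. TJP1, TJP3 and CGN overlapped at 10.3 to 11.2 FPKM, above CLDN12 at 5.02 and OCLN at 3.71. CLDN1 led in the other 3 groups. In the knockdown CLDN4 and CLDN7 overlapped at 43.8 ± 1.25 and 42.6 ± 3.35 FPKM, and TJP3 moved to the front of the scaffolds at 14.2 ± 1.47 FPKM, overlapping CGN at 12.9 ± 0.644, which in turn overlapped TJP1.

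Some members share exons with other genes. In GENCODE 29, whose coordinates match those deposited for all 9 members, 36.6% of the exonic bases of F11R, 16.3% of those of CLDN12 and 10.8% of those of CLDN7 also belong to exons of another gene on the same strand, and 0% of those of the other 6. In the wider list of tight junction genes described next, CDC42 (57.1% shared) averaged 0.142 FPKM with TNF-α. How far sharing lowered any of these levels was not tested. OCLN has a pseudogene copy, OCLNP1, on the same chromosome, which had 0 to 6 reads per library against 696 to 1216 for OCLN.

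The study's quantitative PCR primers for the 3 junction genes it followed are shown with their sites, because one pair does not separate a gene from its copy. They are printed 5′ to 3′, with nothing in capitals.
CLDN1 forward: cctcctgggagtgatagcaat
CLDN1 reverse: ggcaactaaaatagccagacct
OCLN forward: acaagcggttttatccagagtc
OCLN reverse: gtcatccacaggcgaagttaat
TJP1 forward: caacatacagtgacgcttcaca
TJP1 reverse: cactattgacgtttccccactc

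The CLDN1 pair spans 145 bases of CLDN1-201, in the coding parts of exons 2 and 3 (chr3:190310234-190312996). The TJP1 pair spans 105 bases of TJP1-201 in coding exons 2 and 3 (chr15:29773277-29800669). The OCLN pair spans 89 bases of OCLN-201 in coding exons 5 and 6 (chr5:69534800-69544952), and both of its primers also match OCLNP1-201 without mismatch, again 89 bases apart, in exons 1 and 2 (chr5:71082944-71093086). In these libraries OCLNP1 lay between 0 and 0.246 FPKM and OCLN between 3.21 and 4.99 FPKM.

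In a wider list of 75 tight junction genes, 57 of which were tested, the knockdown raised 12 and lowered 0, where 9.35% of all genes were higher and 8.08% lower. Beyond CLDN1, CLDN7 and TJP3 they were the myosin light chains MYL9 and MYL12A, the angiomotins AMOT and AMOTL2, the tricellular junction proteins LSR and ILDR1, the polarity protein PARD6B, the actin regulator SHROOM3 and the kinase WNK4. MYL9, whose phosphorylation drives contraction of the actomyosin belt, measured 1.33, 1.74 and 1.39 FPKM with TNF-α and 4.23, 2.84 and 5.59 FPKM in the knockdown (log2 difference 1.40 ± 0.23, adjusted p = 0.00128). AMOT measured 4.74, 5.02 and 4.36 FPKM against 8.41, 7.53 and 8.32 FPKM (0.77 ± 0.08, adjusted p = 6.15e-05), and WNK4 0.761, 0.958 and 1.16 FPKM against 1.77, 1.55 and 1.77 FPKM (0.78 ± 0.17, adjusted p = 0.00833). In each of these 3 genes every knockdown library exceeded every TNF-α library, which the rule for naming them required. By subgroup, 2 of 11 claudins, 2 of 9 other membrane proteins, 4 of 22 scaffolds and 4 of 15 actomyosin genes were called, all higher. Outside the members, 9 of 48 tested genes of the list (18.8%) were called, all higher, where 9.35% of all genes were higher and 8.08% lower. The median log2 difference of the 57 was 0.105, beside −0.003 for all genes.

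With TNF-α, 5 of the 57 were called, 3 higher and 2 lower, where 3.22% of all genes were called higher and 0.885% lower. SHROOM3 rose from 6.41, 7.24 and 6.38 FPKM in medium to 9.49, 9.23 and 8.52 FPKM (log2 difference 0.44 ± 0.09, adjusted p = 0.0109). AMOTL2 rose from 26.6, 27.6 and 24.0 FPKM to 32.7, 36.6 and 31.3 FPKM (0.36 ± 0.07, adjusted p = 0.0145). CLDN1 was the third that rose, and TJP3 and MYLK, the kinase of the myosin light chain, fell (MYLK by 0.56 on the log2 scale, adjusted p = 0.0297, from 1.01 to 0.658 FPKM). The number called lay between 2 and 4 when a library was left out. With 5-OH-TMT limma called 0 of 57, and 12 had an unadjusted p under 0.05, beside 20.1% of all genes. Voom called 1, again with no share of all genes computed.

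**Figure D4:**
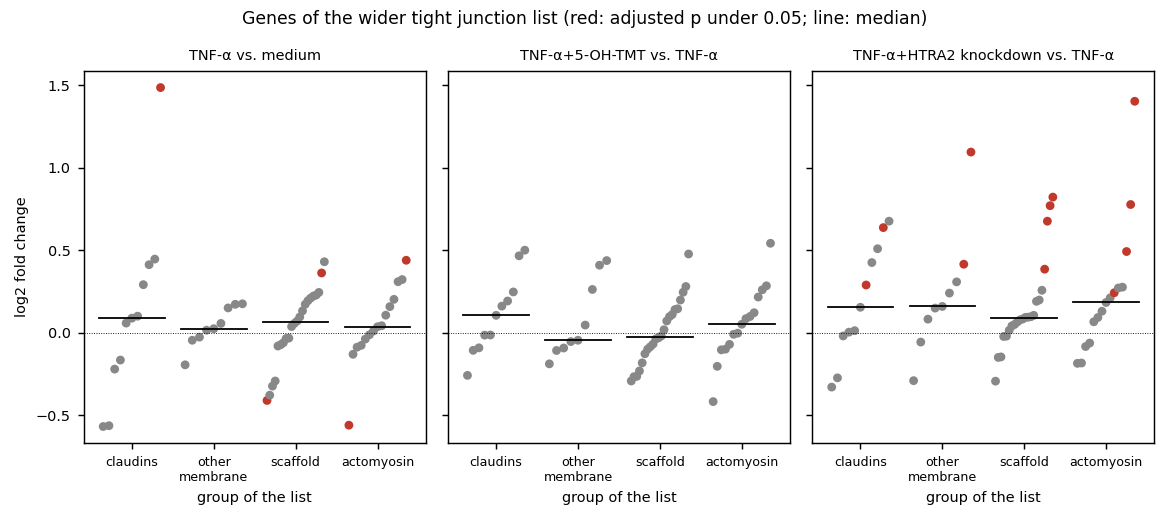
Log2 fold change (vertical axis) of the 57 tested genes of the wider list in 3 comparisons, ordered by value within 4 groups (horizontal axis), with adjusted p under 0.05 in red and the median of each group as a line. In the knockdown all 12 red points lie above 0, in each of the 4 groups.

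Adherens junctions and desmosomes are the adhesive contacts next to the tight junction. Of 23 of their genes 13 rose and 0 fell in the knockdown, where 9.35% of all genes were higher and 8.08% lower, with a median log2 difference of 0.31. P-cadherin (CDH3) went from 87.3, 93.6 and 85.9 FPKM with TNF-α to 136, 129 and 149 FPKM (0.63 ± 0.08, adjusted p = 0.000186) and the nectin NECTIN4 from 5.67, 5.33 and 6.60 to 10.1, 10.96 and 9.89 FPKM (0.81 ± 0.12, adjusted p = 0.000766). The desmosomal genes DSG3 (0.67, adjusted p = 0.0155) and PKP1 (0.56, adjusted p = 0.000244) also rose. With TNF-α 3 of 23 rose and 0 fell, where 3.22% of all genes were called higher and 0.885% lower. The 3 were AFDN (0.32, adjusted p = 0.00942), CTNNB1 (0.31, adjusted p = 0.00935) and VCL (0.29, adjusted p = 0.0436), which link cadherins and nectins to actin. With 5-OH-TMT limma called 0 of 23, with 7 at an unadjusted p under 0.05, beside 20.1% of all genes.

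Of 24 transcription regulators of epithelial junction genes, 15 were tested. With TNF-α 1 of the 15 was called higher and 1 lower, where 3.22% of all genes were higher and 0.885% lower. In the knockdown 6 were higher and 2 lower, where 9.35% of all genes were higher and 8.08% lower. GRHL3, a grainyhead factor of the epidermal barrier, rose with TNF-α from 0.747, 0.854 and 0.730 FPKM to 1.48, 1.95 and 1.79 FPKM (log2 difference 1.06 ± 0.14, adjusted p = 0.000711) and was higher again in the knockdown at 3.40, 2.85 and 2.53 FPKM (0.72 ± 0.14, adjusted p = 0.00432). OVOL2 fell in both, by 0.80 on the log2 scale each time (adjusted p = 0.0024 and 0.000996). In the knockdown OVOL1 (0.93, adjusted p = 0.000131), KLF4 (0.62, adjusted p = 0.00251), ELF3 (0.56, adjusted p = 0.00139), GRHL1 and KLF5 rose as well, 6 in all, and GRHL2, which acts on claudin genes, fell with OVOL2 (GRHL2 by 0.42, adjusted p = 0.00202). The repressors ZEB1 and ZEB2 stayed under the filter, and with 5-OH-TMT limma called 0 of 15, with 2 at an unadjusted p under 0.05, beside 20.1% of all genes.

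Markers of other cell states moved with the knockdown, where 9.35% of all genes were called higher than with TNF-α and 8.08% lower. The summed FPKM of the 8 squamous or basal markers was 318 to 321 with TNF-α and 505 to 610 in the knockdown, where DSG3, KRT5, KRT6A, KRT13, KRT17 and SPRR1B rose and TP63 fell. The sum of the 8 mesenchymal markers was 198 to 223 with TNF-α and 438 to 614 in the knockdown, where ACTA2, COL1A1 and FN1 rose, CDH2 and VIM fell, and COL1A2, COL3A1 and PDGFRB were under 0.1 FPKM. FN1, the gene of fibronectin, made up most of that sum, with 205, 214 and 188 FPKM with TNF-α and 529, 431 and 607 FPKM in the knockdown, while CDH2 and VIM fell to 0.362 and 0.298 of their TNF-α level. KRT17 and KRT5 likewise made up most of the squamous or basal sum. Epithelial markers summed to 2320 to 2570 and 2170 to 2440, mostly from KRT8 and KRT18, which were not called, whereas CDH1, KRT7 and KRT19 rose and GRHL2 fell, 4 of the 8. Of the others, 6 of 7 immune markers were under 0.1 FPKM, and 1 of 5 endothelial markers reached 1 FPKM. The part of these shifts in the junction results was not tested. The share of reads on mitochondrial genes was 3.69% to 4.53% with TNF-α and 2.95% to 4.50% in the knockdown, lowest in its replicate 2, without which 4 of the 9 members were called.

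The genes whose pattern over the 12 libraries lay closest to that of CLDN1 were OPTN, HDAC9 and DAPP1, among 11185 genes with a mean of at least 1 FPKM. Their root mean square distance from CLDN1 after centring was 0.106, 0.123 and 0.125 on the log2 scale, where CLDN1 itself had an SD of 0.778. OPTN averaged 2.34 FPKM in medium, 5.76 with TNF-α, 5.86 with TNF-α+5-OH-TMT and 9.82 in the knockdown. For OCLN the closest were SH3GLB1, SOS2 and MEX3C (0.082 to 0.089, own SD 0.19), and for TJP1 PTPN14, BTBD7 and DIP2B (0.06 to 0.064, own SD 0.128), where the small spread of the 2 genes leaves little pattern to match.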

How the data were processed

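The values are FPKM, deposited by the authors in 1 table of all libraries. The submitters' processing notes name CASAVA 1.8, HISAT2 2.0.4, HTSeq 0.9.1 and hg38; how the FPKM were scaled and whether counting used strand are not given in the sources used here. FPKM times gene length gave whole reads for 100% of the values above 0 in each library (tolerance 0.02 reads or 1 part in 100000), used for depth and for voom.

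After a filter at a mean of 0.1 FPKM, 18079 genes were fitted as log2(FPKM + 0.1) with limma 3.58.1 in R 4.3.3 (1 mean per group, eBayes with trend, 8 residual degrees of freedom, two-sided, Benjamini-Hochberg). Genes were called at an adjusted p under 0.05. Log2 differences are on this scale, which understates changes of low genes, and folds are ratios of mean FPKM. The fit was tested on simulated data. The planted changes were larger than any difference of a member between TNF-α and another group, so smaller differences were not covered. Named are the 9 members, HTRA2 and, per comparison, up to 4 higher and 4 lower genes of each list with a mean of at least 1 FPKM and groups that do not overlap; other genes named were chosen after their values were seen. The members and lists were chosen with earlier results of these data known. Same-numbered libraries did not deviate together (r −0.052 to 0.038 over 9 pairs), so the numbers were not taken as pairs. No 2 libraries of a group agreed within sampling noise.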

Additional observations from a re-analysis of the deposited data

How the results depend on the processing

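The calls of CLDN1 with TNF-α and of CLDN1 and TJP3 in the knockdown passed under each of 11 alternatives of scaling, filter, pseudocount and model and in each of 6 fits with a library left out; the cause of the moves below was not tested. With TNF-α, 1 member was called in place of 2 with a pseudocount of 1, without a filter, in a fit to the 2 groups, without trend, with the replicate block and by the criterion of a fold of at least 2, and 1 to 2 with a library left out; the wider list gave 3 without a filter, without trend and with the replicate block, 1 in a fit to the 2 groups and by the fold criterion, and 2 to 4 with a library left out, in place of 5. With 5-OH-TMT, in place of 0, 1 member was called with a filter at 1 FPKM and with voom and 2 in a fit to the 2 groups, and for the wider list 1, 1 and 4. With a library left out, 0 members and 0 genes of the wider list were called in each of the 6 fits. Apart from the fold criterion, the share of all genes called was not computed for any alternative or any fit with a library left out. In the knockdown the fold criterion gave 0 members and 2 genes of the wider list in place of 3 and 12, where the other alternatives gave 3 to 4 and 9 to 14, and 2 to 4 and 8 to 15 with a library left out. Against medium, 5-OH-TMT gave 1 member in place of 2 without a filter, in a fit to the 2 groups, without trend, with the replicate block and with voom, and 1 to 2 with a library left out; the knockdown gave 3 in place of 6 in a fit to the 2 groups and 4 to 7 with a library left out. The knockdown against 5-OH-TMT gave 6 in place of 3 when rescaled to a fixed sum, 1 in a fit to the 2 groups, without trend and with the replicate block, and 1 to 3 with a library left out.

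Directions turned only for differences far from the threshold. In the knockdown against TNF-α, rescaling to a fixed sum gave 0.022 for CLDN12 and 0.019 for TJP1; with a library left out CLDN12 ran from −0.078 to 0.039 and TJP1 from −0.125 to 0.041. With 5-OH-TMT against TNF-α, TJP1 ran from −0.133 to 0.033 and CGN from −0.04 to 0.013. With 5-OH-TMT against medium, CLDN4 was −0.038 after quantile normalization and −0.027 with voom, CLDN12 −0.018 and OCLN −0.006 with voom, and with a library left out CLDN4 ran from −0.048 to 0.152, CLDN12 from −0.058 to 0.095, OCLN from −0.057 to 0.141 and TJP3 from −0.008 to 0.17. In the knockdown CLDN4 ran from −0.14 to 0.06 against medium and TJP1 from −0.035 to 0.08 against 5-OH-TMT.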
